A study of Saccharomyces cerevisiae with 3 samples.

Results

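Transcripts of a Saccharomyces cerevisiae gcr1 null mutant and of its wild type were set against each other 20 min after glucose reached cells growing on pyruvate. Both strains had been grown to early or mid log phase in YEP medium with 3% pyruvate, and RNA was then taken just before glucose (0 min) and at 20 and 60 min. At each time, labelled cRNA of the mutant and of the wild type was hybridised together to 1 Agilent oligonucleotide array with 2 channels, Cy5 and Cy3. The values described here are the deposited log2 ratios of the 20 min array, taken over every probe with a gene symbol in the platform annotation and averaged per gene. This gave 5597 of the 5598 genes that had a value on any of the 3 arrays. The 0 and 60 min arrays, with 5596 genes each, are quoted only beside the 20 min values. The labels give neither the strain background nor how the mutant allele was made. With 1 array at 20 min no difference between the strains has a replicate check, and no test or p-value was computed. In RNA from a whole culture, fewer cells that make a transcript and less transcript in each cell cannot be told apart.

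Gcr1 is a DNA-binding activator that works with Gcr2 and Rap1 at the promoters of glycolytic genes, and cells without it grow poorly on glucose. Glucose normally sets off a rapid change of programme in yeast. Genes of respiration, gluconeogenesis, fat breakdown and stress defence are turned down through Mig1, the Snf1 kinase and the Ras and protein kinase A pathway, while genes for making ribosomes and for division are turned up.

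Which strain is the numerator is not stated in the labels. The array title and the design text name the mutant first, so a positive ratio is likely to mean more transcript in the mutant. At 0 min the 14 glycolytic genes had a median of -3.30, with 10 at least 2-fold negative and 0 positive. Under the likely orientation that sign means less transcript of these genes in the strain without their activator. The values of GCR1 (YPL075W) itself do not settle the orientation. Its 2 probes gave log2 ratios of 0.90 and 0.93, with a mean of 0.91, on the positive side although GCR1 is the inactivated gene. The labels do not place those probes relative to the altered part of the gene, and a probe outside it would check nothing. Directions are therefore given as positive and negative ratios, and "higher in the mutant" holds for positive ratios only under the likely orientation. GCR2 stood at 0.12, so neither gene of the pair reached 2-fold. Close copies cross-hybridise, which leaves the division of signal uncertain within the TDH and ENO genes, between HXT6 and HXT7, and within ribosomal protein pairs.

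The strains differed at 20 min over a wide range, and farther on the positive side than on the negative. At least 2-fold positive, a log2 ratio of 1.0 or more, were 958 of 5597 genes (17.1%), and at least 2-fold negative were 925 (16.5%), together 33.6%. Beyond 4-fold the sides parted, with 341 positive and 139 negative genes, and beyond 8-fold there were 118 and 12. Of the 5597 genes 2960 were below 0 and 2636 above it. The median gene stood at -0.08 and the interquartile range was 1.34, against 0.42 at 0 min and 1.25 at 60 min. The 2-fold line runs through a dense part of the distribution. The nearest genes inside it had 1.002 and -1.0, and the nearest outside 0.999 and -0.999. The medians and counts of the gene groups below are to be read against these shares of all genes, since the groups' members are not replicates.

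**Figure D1:**
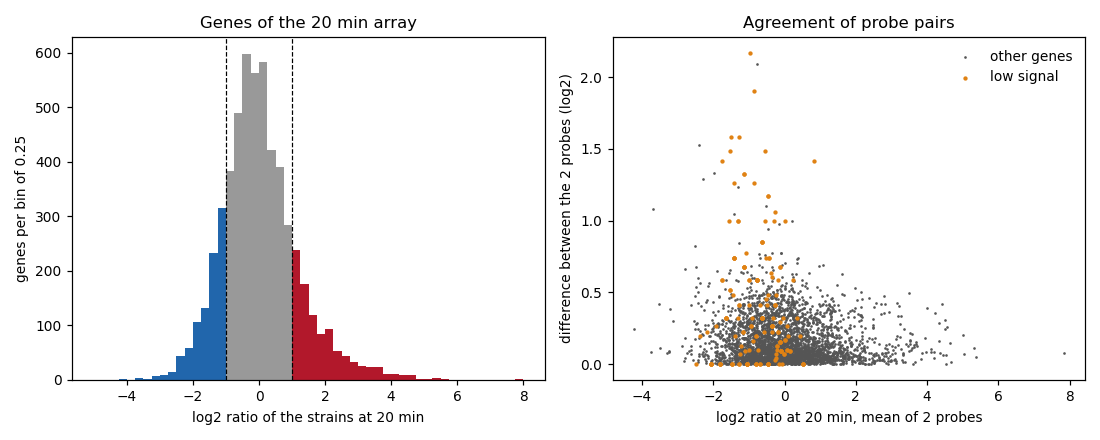
Left, number of genes per bin of 0.25 in log2 ratio at 20 min, with dashed lines at 2-fold and coloured bars beyond them (red positive, blue negative). Right, difference between the 2 probes of a gene against their mean, where each point is a gene and orange points are low-signal genes. The positive tail reaches 7.83 and the negative tail -4.22, and the largest probe differences are mostly orange.

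The error that this array allows to be measured is that between probes. In 3563 genes with 2 valued probes the probes differed by a median of 0.11, and 95% of pairs differed by less than 0.48. Of 1164 such genes with a mean beyond 2-fold, 1034 (88.8%) had both probes beyond 2-fold on the same side, and 0 had probes of opposite sign. Both probes read the same labelled cRNA, so this error leaves out differences between cultures, RNA preparations and labellings. Only 23 pairs lay more than 1.0 apart. Of the 10 least alike, 8 were low-signal genes, including the marker gene HIS3 with -0.47 and -2.06. A gene was called low signal when each of its probes was missing or carried a ratio of small whole numbers after the offset of the array, a pattern that dim spots can give. There were 376 such genes, and 118 of them were at least 2-fold negative against 9 at least 2-fold positive, so a negative ratio of a low-signal gene is given below only with that remark.

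GCN4 (YEL009C), the activator of amino acid synthesis genes, was farthest from 0, with probes at 7.79 and 7.87, a 228-fold difference. It stood almost as far out on the other arrays, at 7.66 before glucose and 7.40 at 60 min. GPM2, a relative of phosphoglycerate mutase, followed with 5.50 from 1 probe. Next came enzymes that handle acetyl groups, namely the CoA transferase ACH1 (5.38) and the citrate synthases CIT1 (5.32) and CIT2 (5.04). DLD3, which makes 2-oxoglutarate while using pyruvate, had 5.37, and UGA2, the last enzyme of GABA breakdown, had 5.01. The polyamine oxidase FMS1 (4.87), the peroxisomal fat-breakdown enzyme FOX2 (4.81), the Hsp70 chaperone SSA1 (4.67) and pyruvate carboxylase PYC1 (4.67) completed the first 11. All of these except GCN4, DLD3 (1.52) and CIT2 (1.15) were within 2-fold at 0 min. Further down the first 25 were the disaggregase HSP104 (4.49), catalase CTT1 (4.51), the S-adenosylmethionine permease SAM3 (4.52), the nucleotidase PHM8 (4.53), the membrane protein gene YRO2 (4.64), the dihydroxyacetone kinase DAK2 (4.35), HSP30 (4.35) and carbonic anhydrase NCE103 (4.34). YDR222W, a gene known by its systematic name, had 4.53, and ARO5 had 4.57.

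At the other end of the array, the pheromone gene MF(ALPHA)2 was lowest, with probes at -4.34 and -4.09. The phosphoglycerate mutase GPM1, at -3.75, was the 1 glycolytic gene among the lowest 25. Carriers and handlers of RNA and nuclear cargo were several: the importin KAP122 (probes -4.23 and -3.15), the tRNA exporter LOS1 (-3.23), RNA14 of the mRNA cleavage factor (-3.24), the polymerase II tail phosphatase SSU72 (-2.75) and the tRNA deaminase subunit TAD2 (-2.69). RRN3, which recruits RNA polymerase I, had -3.29, and RPS9A of the small ribosomal subunit -3.11. Growth and division genes included SFG1 (-3.52), the cyclin-dependent kinase inhibitor FAR1 (-3.48), SWI5 (-2.89) and CDC20 (-2.64). Transporters and wall or membrane genes were the phosphate carrier PHO89 (-3.09), the choline permease HNM1 (-2.97), the glucose carrier HXT2 (-2.82) and the mannoprotein CWP1 (-2.79). Of the enzymes, SER3, the first step of serine synthesis, had -3.22, ATF2, which acetylates alcohols, -2.81, and ADE17 of purine synthesis -2.79. SST2, which turns off pheromone signalling, and GYL1 also had -2.79, and the systematic-name genes YMR209C and YGR035C had -3.12 and -2.69.

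Glycolysis, the pathway Gcr1 is named for, no longer lay on 1 side of the array at 20 min. Of its 14 genes, 5 were at least 2-fold negative, 3 at least 2-fold positive and 6 between, and the list median was -0.26. In pathway order, the hexokinase HXK2 had 1.42 and phosphoglucose isomerase PGI1 -2.05, with probes at -2.06 and -2.04. The phosphofructokinase subunits PFK1 and PFK2 stood at 0.19 and -0.08, aldolase FBA1 at -0.28 and triosephosphate isomerase TPI1 at -1.50. At the next step the glyceraldehyde-3-phosphate dehydrogenases TDH1, TDH2 and TDH3 had 3.53, 0.41 and -0.24, and phosphoglycerate kinase PGK1 had -0.86. In the last steps were GPM1 with probes at -3.79 and -3.71, enolase ENO2 at -1.80 and pyruvate kinase CDC19 at -2.50, while the other enolase ENO1 had 1.12. The 3 genes that stayed more than 4-fold negative were GPM1, CDC19 and PGI1. Each encodes the single main enzyme of a step, but so do FBA1, TPI1 and PGK1, which were not beyond 4-fold. Before glucose the list median had been -3.30 and GPM1 at -5.55. ENO1 moved from -3.86 to 1.12 and TDH1 from -0.94 to 3.53, which put both among the 15 largest rises from 0 to 20 min over all genes. GPM1 moved less, by 1.80, and CDC19 by 0.94.

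Genes that supply the same reaction were compared by the gap between the highest and the lowest member of a family. In 56 families of enzymes or paired proteins with at least 2 measured members, 42 had members at least 2-fold apart and 26 at least 4-fold. The same shares were not computed for groups of unrelated genes, and the interquartile range of all genes was 1.34. In 6 families, members lay beyond 2-fold on opposite sides: phosphoglycerate mutase, enolase, pyruvate kinase, aldehyde dehydrogenase, isopropylmalate synthase and CTP synthase. The widest gap was 9.25, between GPM2 (5.50) and GPM1 (-3.75), with GPM3 near 0 at 0.10. The second pyruvate kinase PYK2 had 1.25 against -2.50 for CDC19. All 4 genes of the hexose kinase family were on the positive side, from HXK2 (1.42) over EMI2 (2.21) and HXK1 (2.67) to glucokinase GLK1 (4.18). The 6-phosphofructo-2-kinases PFK26 (-0.86) and PFK27 (-0.30), which make the activator of phosphofructokinase, were within 2-fold. The enolase-related ERR1, ERR2 and ERR3 were low-signal genes.

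**Figure D2:**
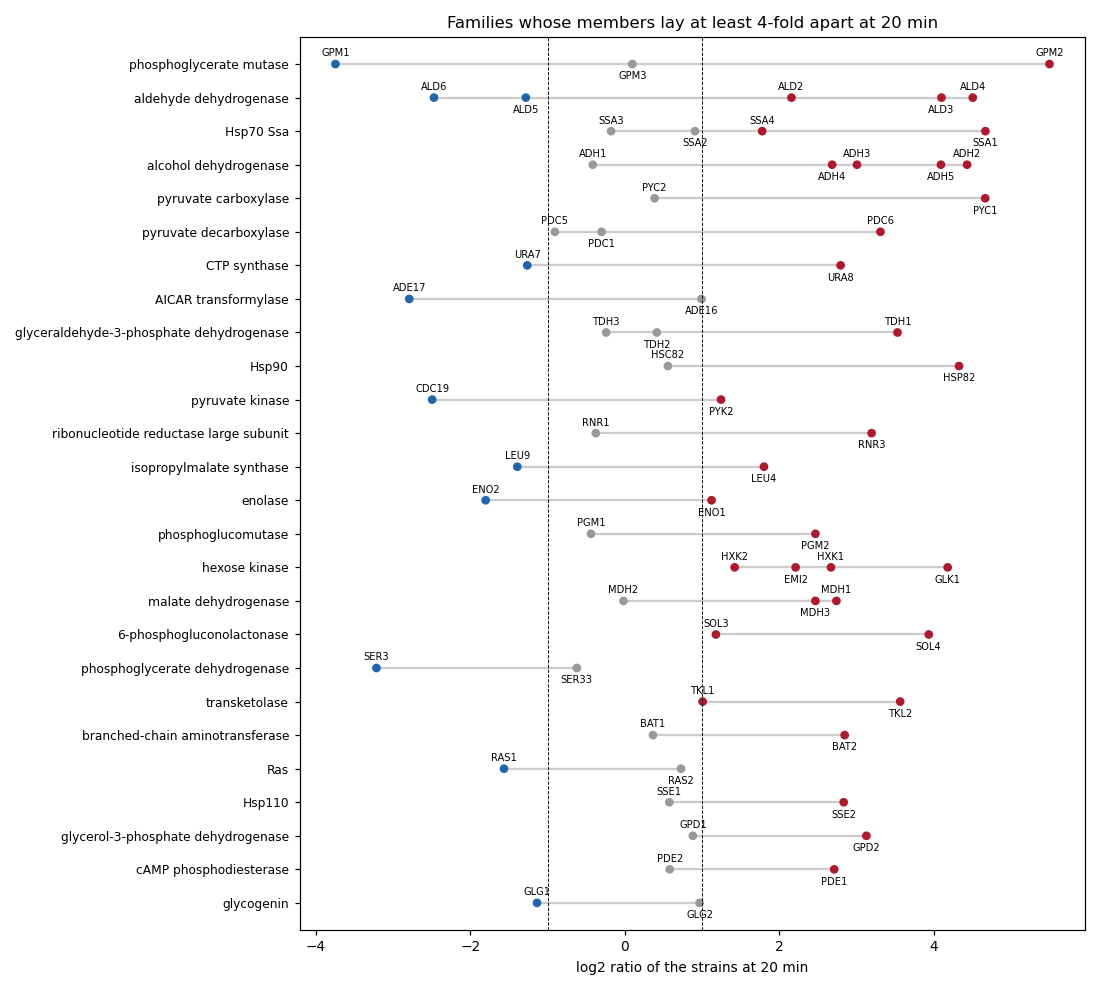
Log2 ratio at 20 min of each member of the 26 families whose members lay at least 4-fold apart, 1 family per line, widest gap at the top. Points are genes, coloured red at 2-fold positive or more, blue at 2-fold negative or more and grey between, with dashed lines at 2-fold. GPM1 and GPM2, at -3.75 and 5.50, mark the widest gap.

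Around pyruvate, the main fermentation genes were within 2-fold and several alternative forms were positive. Pyruvate decarboxylases PDC1 and PDC5 had -0.30 and -0.91, and the minor PDC6 3.31. The main alcohol dehydrogenase ADH1 had -0.41, against 4.43 for ADH2, which consumes ethanol, and 3.01 for the mitochondrial ADH3. Among aldehyde dehydrogenases, ALD6, the cytosolic source of acetate, had probes at -2.61 and -2.33 and ALD5 had -1.28, while mitochondrial ALD4 had 4.51 and the stress-linked ALD3 and ALD2 4.10 and 2.16. The acetyl-CoA synthetase ACS1, repressed by glucose in wild type, had 2.31 and ACS2 0.71. Among 8 genes for pyruvate entry into mitochondria and its oxidation the median was 1.36, and 6 lay on the positive side beyond 2-fold. They were led by the shared dehydrogenase LPD1 (2.43) and the acetyltransferase LAT1 (1.90), and the carrier subunit MPC1 (0.16) and the binding protein PDX1 (0.01) were near 0.

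The citric acid cycle was positive at every measured step. The 13 genes from isocitrate to malate ranged from 2.15 to 4.19 around a median of 3.00, all beyond 2-fold. The isocitrate dehydrogenase subunits IDH1 and IDH2 had 3.42 and 3.25, and the oxoglutarate dehydrogenase parts KGD1 and KGD2 3.02 and 2.40. Succinyl-CoA ligase, LSC1 and LSC2, stood at 2.15 and 2.17. Succinate dehydrogenase, also a respiratory complex, had 3.50, 3.00, 4.19 and 3.10 in SDH1 to SDH4, followed by fumarase FUM1 (2.52) and malate dehydrogenase MDH1 (2.74). Subunits lay within 0.17 of each other in isocitrate dehydrogenase and 0.02 in the ligase, and from 3.00 to 4.19 in succinate dehydrogenase. Aconitase ACO1 was the lowest of the genes of the cycle described here, at 1.46, and the steps on either side of it were higher. Of the bypass enzymes, isocitrate lyase ICL1 had 1.90, malate synthase MLS1 1.47 and the cytosolic malate dehydrogenase MDH2 -0.02. At 60 min the same 13 genes had a median of 0.36, and at 0 min -0.07.

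The measured nuclear genes of each respiratory complex were positive as a group. In the cytochrome bc1 complex 9 of 9 genes were at least 2-fold positive (median 2.33), from CYT1 (1.14) to the core subunit QCR2 (4.26). Cytochrome c and cytochrome oxidase had 11 of 11 (median 2.08), from COX5B (1.11) to COX6 (2.95), with both the aerobic and the hypoxic partner of cytochrome c, CYC1 (1.41) and CYC7 (2.03), on this side. For the ATP synthase it was 16 of 17 (median 2.25), between TIM11 (1.69) and the delta subunit ATP16 (3.11). The exception was STF2, a stabilising factor of the enzyme, with probes at -0.90 and -0.88. The inhibitor INH1 (2.46) and its partner STF1 (2.32) were among the positive genes. Of the NADH dehydrogenases, internal NDI1 had 3.14 and external NDE2 1.44, while external NDE1 was below 0 at -0.50. The lactate dehydrogenases DLD1 and CYB2 stood at 2.54 and 2.37.

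The machinery that builds these complexes did not share their ratios. Of 28 assembly factors 6 were beyond 2-fold on the positive side and 1 on the negative (median -0.22). The copper carrier COX17 (2.64) and COX20 (2.73), which handles subunit 2 of the oxidase, were as high as structural subunits. In contrast, OXA1, the inner membrane insertase, had -0.76, the ATP synthase chaperones ATP11 and ATP12 -0.32 and -0.90, and CBP4 of the bc1 complex -1.51. Activators that serve single mitochondrial mRNAs had a median of -0.60 (0 of 12 positive, 2 negative), with PET122 at -2.0 and AEP3 at -1.53. Mitochondrial ribosomal proteins had a median of 0.09 and 5 of 70 at least 2-fold positive, and 1 negative, MRP2 (-1.03). The import channels had a median of 0.11, with the outer membrane subunit SAM35 (1.03) positive and TIM10 (-1.18) and TIM18 (-1.04) negative among 36. MRP8, which entered the ribosomal list by its symbol alone, was its highest member at 2.63. The mitochondrial carriers lay between, with a median of 0.84, 10 of 27 positive and 2 negative. The oxodicarboxylate carrier ODC1 (3.53), the succinate-fumarate carrier SFC1 (2.90), the outer membrane channel POR1 (2.0) and the phosphate carrier MIR1 (1.84) were high. Of the ADP/ATP carriers PET9 had 1.51 and AAC1 1.27. The negative members were the pyrimidine nucleotide carrier RIM2 (-1.12) and the low-signal LEU5 (-1.17). Haem synthesis had 4 of 9 genes positive, with the first enzyme HEM1 at 1.58 and the oxygen-dependent HEM13 at -1.45, while the haem-degrading HMX1 had 2.70. Ubiquinone synthesis had 3 of 10, led by COQ4 (2.15), and 1 negative, COQ2 (-1.01).

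**Figure D3:**
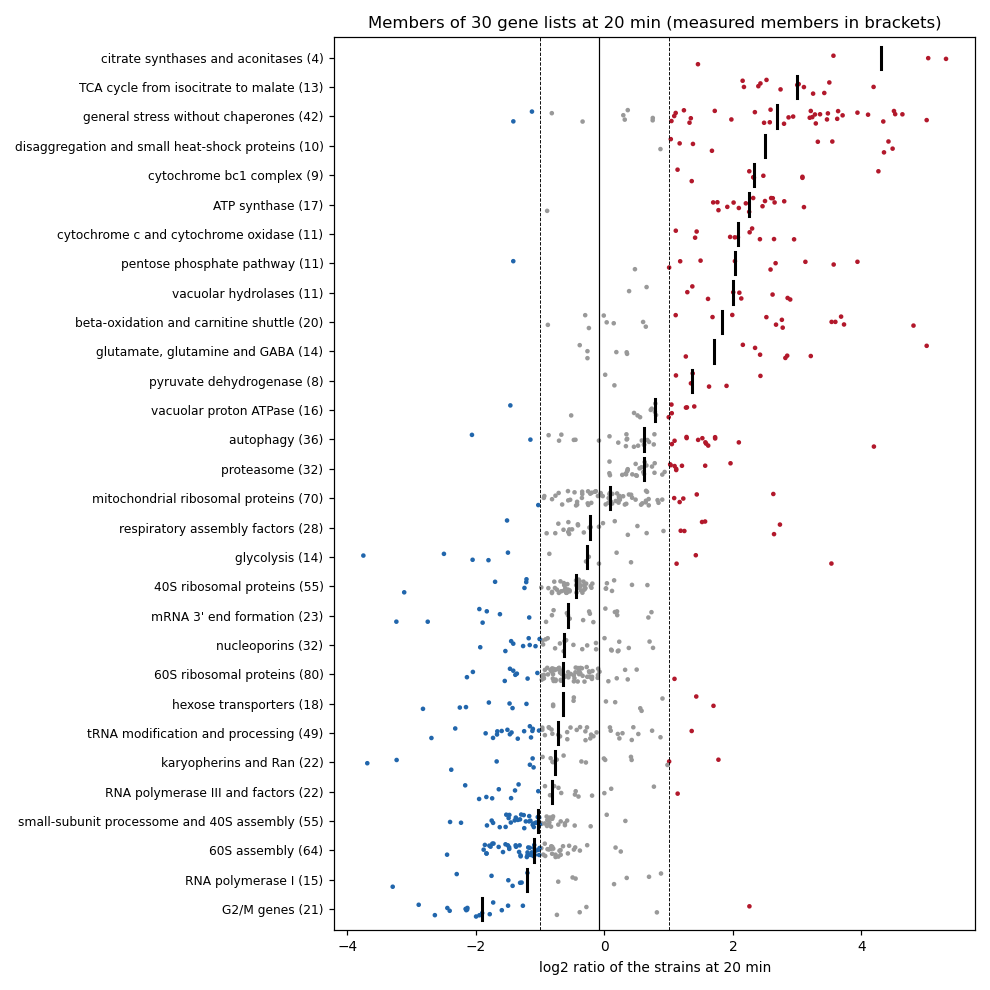
Log2 ratio at 20 min of each measured member (points) of 30 gene lists, ordered by list median (black bars), with the number of members in brackets. Dashed lines mark 2-fold and the solid line the median of all genes at -0.08, and red and blue points lie beyond 2-fold. The citric acid cycle, bc1, oxidase and ATP synthase lists lie wholly or almost wholly to the right, with medians of 2.08 or more, and the G2/M list is lowest at -1.90.

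Fat breakdown was divided between its enzymes and the organelle that holds them. In beta-oxidation and the carnitine shuttle 12 of 20 genes were at least 2-fold positive (median 1.84) and 0 negative. FOX2 (4.81), the thiolase POT1 (3.59), the acyl-CoA synthetases FAA2 (3.73) and FAA1 (3.54), the reductase SPS19 (3.68) and the carnitine acetyltransferases YAT1 and YAT2 (2.67 and 2.77) made up the upper part. The oxidase POX1 that opens the pathway had 0.65, catalase CTA1 -0.01 and the fatty acid sensors OAF1 and PIP2 -0.30 and 0.04. Peroxisome biogenesis, in comparison, had a median of 0.08, with PEX30 (2.0) and the ubiquitin-conjugating PEX4 (1.08) positive and 3 of 27 negative.

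Vacuolar breakdown stood on the positive side in several of its layers. Of 11 vacuolar hydrolases and their inhibitors 9 were at least 2-fold positive and 0 negative (median 2.0). They included proteinase A PEP4 (2.0) and its inhibitor PAI3 (2.89), proteinase B PRB1 (1.61) and its inhibitor PBI2 (2.10), carboxypeptidase PRC1 (2.62) and phosphatase PHO8 (2.85). Autophagy genes had a median of 0.62, with 13 of 36 positive and 2 negative. ATG41 was far above the others at 4.19, followed by the mitophagy gene ATG33 (2.09), the membrane-anchored ATG8 (1.72) and ATG10 (1.72), and the kinase ATG1 had -0.70. The low-signal ATG14 had -2.06. The proton pump of the vacuole had a median of 0.79, and 6 of 16 genes positive. It was led by VMA11 (1.40). Its 2 alternative membrane subunits parted, with vacuolar VPH1 at 0.56 and STV1, which serves the Golgi, at -1.46.

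Glycerol and pentose branches off glycolysis were positive, and storage carbohydrates less so. Glycerol metabolism had 8 of 11 genes at least 2-fold positive (median 2.70), among them GCY1 (4.48), DAK2 (4.35), the phosphatase GPP2 (3.36) and the dehydrogenase GPD2 (3.13), while GPD1 had 0.88. The pentose phosphate pathway had 9 of 11 (median 2.03), with SOL4 (3.94), the transketolase TKL2 (3.57) and the transaldolase-like NQM1 (3.13) ahead of their main forms SOL3 (1.18), TKL1 (1.01) and TAL1 (2.03). Its exception was the ribose-5-phosphate isomerase RKI1 (-1.42). Trehalose genes were within 2-fold apart from the trehalase NTH1 (1.32). For glycogen the breakdown enzymes GPH1 (3.64) and GDB1 (1.22) and the synthase GSY2 (1.66) were positive, and the primer GLG1 negative (-1.14).

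Glucose entry and sensing gave ratios on both sides. Of 18 hexose transporters 7 were at least 2-fold negative and 2 positive (median -0.64), but 8 of the 18 were low-signal genes and the median without these was 0.36. The low-affinity carrier HXT1 had 1.70 and HXT5, linked to slow growth, 1.43, whereas high-affinity HXT2, HXT6 and HXT7 had -2.82, -2.25 and -2.15. HXT2 had been at 1.02 before glucose. In the list for glucose sensing and repression, 7 of 34 genes were negative and 2 positive, with a median of -0.07. The repressors MIG1 (probes -1.89 and -1.89) and MIG2 (-1.84) and the ubiquitin ligase component GRR1 (-2.52), which acts below the sensors, were lowest. RAS1 had -1.57 against 0.73 for RAS2, the kinase SCH9 -1.08 and the corepressor MTH1 -1.10. The phosphodiesterase PDE1, which breaks down cAMP, had 2.71, and the Snf1 kinase subunit SNF4 -0.67. SUC2, the invertase gene that Mig1 represses, stood at 2.36, after -0.55 before glucose and -0.13 at 60 min. Activators of respiratory and stress genes divided as well. ADR1 (2.76), CAT8 (2.27) and MSN2 (2.13) were positive, and HAP4 (-1.94), the glucose-regulated part of the activator of respiratory genes, GIS1 (-1.33) and RDS2 (-1.13) negative. HAP2, HAP3 and HAP5, which form the rest of that complex, had 0.28, 0.39 and 0.70. TYE7, another activator of glycolytic genes, had 3.15 from 1 probe, and the general factors RAP1, REB1 and ABF1 -0.65, -1.11 and -1.70.

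Protein quality control was divided within its families, between genes of large positive ratio and relatives close to 0. Disaggregation and small heat-shock proteins had 9 of 10 genes at least 2-fold positive (median 2.50), namely HSP104 (4.49), HSP12 (4.42), HSP30 (4.35), HSP42 (3.55) and mitochondrial HSP78 (3.32) among others. For Hsp90, inducible HSP82 had probes at 4.25 and 4.41 and constitutive HSC82 0.56. Within the Hsp70 family SSA1 had 4.67, SSA4 1.78, SSA2 0.91 and SSA3 -0.18, and the ribosome-bound SSB1 and SSB2 -0.67 and -0.68. The cochaperone SIS1 (3.20) and the exchange factor SSE2 (2.84) were high and the general Hsp40 YDJ1 was near 0 (-0.13). The transcription factor HSF1 stood at 0.03. Chaperonin and prefoldin had 0 of 14 genes beyond 2-fold on either side. All 32 proteasome genes were above 0 and 8 at least 2-fold positive, with PRE3 highest at 1.96. Ubiquitin itself, the stress-induced UBI4, had 3.53, the activating enzyme UBA1 1.86 and UBC4 1.46, and the cell-cycle enzyme UBC11 -1.98.

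Redox defence followed the stress genes. Of 29 genes for glutathione, thioredoxin and peroxide removal 16 were at least 2-fold positive (median 1.07). Cytosolic catalase CTT1 (4.51), mitochondrial peroxiredoxin PRX1 (2.96), the glutaredoxins GRX1 and GRX2 (2.76 and 2.16) and mitochondrial superoxide dismutase SOD2 (1.87) were among them. Cytosolic SOD1 (-0.10), glutathione reductase GLR1 (0.23) and thioredoxin reductase TRR1 (-0.33) were near 0, and the peroxidase GPX2 was the 1 negative member at -2.22. Among 42 other general stress genes 33 were positive (median 2.69), and the negative ones were AFR1 (-1.13) and PRM10 (-1.42).

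Genes for making ribosomes lay on the negative side, stage by stage. RNA polymerase I had a median of -1.20 (8 of 15 at least 2-fold negative), with RRN3 (-3.29), RPA43 (-2.30) and the largest subunit RPA190 (-1.76) lowest. The upstream factors RRN5 and RRN10 were above 0, at 0.69 and 0.88. Assembly of the small subunit had 32 of 55 negative (median -1.04), led by the helicase DHR2 (-2.40) and UTP22 (-2.23), and assembly of the large subunit 37 of 64 (median -1.09), led by SDA1 (-2.45). Both had 0 positive members. The 3 medians lay near the 2-fold line, and scaling the array to the mean spread of the 3 arrays took them to -0.92, -0.80 and -0.84. The products of this machinery, the ribosomal proteins, were less far out at this time. For the small subunit 5 of 55 were at least 2-fold negative (median -0.44), and for the large subunit 9 of 80 (median -0.64) with RPL15B (1.09) positive. Both negative shares were below the 16.5% of all genes, although 48 of the 55 and 74 of the 80 were below 0. At 60 min, by contrast, the medians of small and large subunit proteins were -2.04 and -2.08. RPS9A stood 2.33 below its paralogue RPS9B (-0.78), and RPL7B (-2.14), RPL18B (-2.05) and RPS7B (-1.70) were also single copies of paired genes far from 0. RNA polymerase III had 9 of 22 negative (median -0.81), with RPC53 (-2.17) and RPO31 (-1.95) lowest, and its repressor MAF1 was the 1 positive gene at 1.14. Polymerase II subunits (median -0.43), Mediator (-0.28) and TFIID with SAGA (-0.06) had 2 negative members each, of 11, 25 and 27, and 0, 2 and 1 positive. For Mediator and TFIID with SAGA these negative shares were below that of all genes, with HFI1 of SAGA lowest at -2.38. Initiation factors had a median of -0.50, with 3 of 30 negative, also a share below that of all genes, and elongation factors had a median of 0.07.

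**Figure D4:**
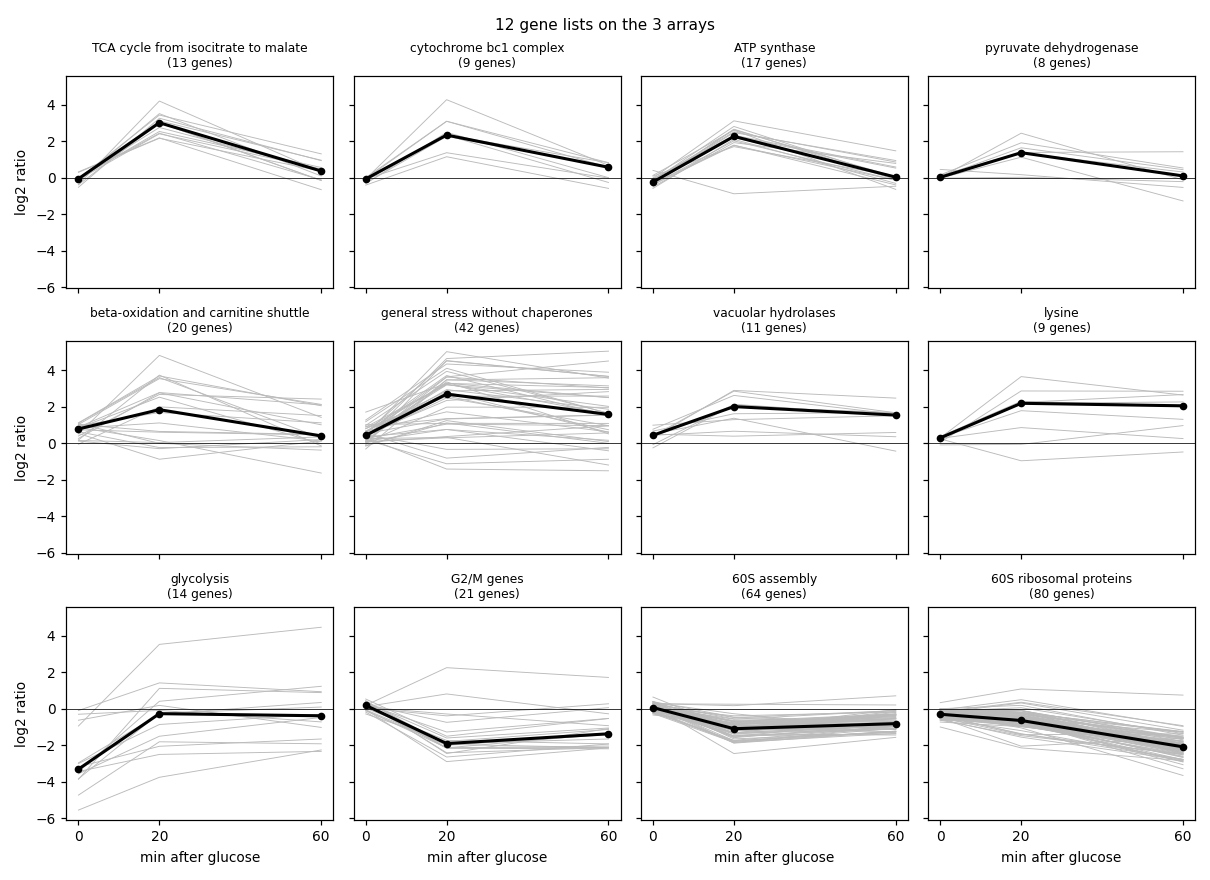
Log2 ratio at 0, 20 and 60 min after glucose for the members of 12 gene lists (grey lines) and their medians (black), 1 array per time. Citric acid cycle and respiratory medians stand at 2.25 or more at 20 min and at 0.56 or less on the other arrays, whereas ribosomal proteins of the large subunit are farthest from 0 at 60 min.

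Genes of RNA handling and nuclear transport were negative to differing extents. Of 49 tRNA modification and processing genes 17 were at least 2-fold negative (median -0.72), with TAD2 (-2.69), the helicase SEN1 (-2.32), the methyltransferases TRM3 (-1.85) and TRM1 (-1.67) and the ligase TRL1 (-1.51) lowest, and KTI12 (1.36) positive. Karyopherins, which carry cargo through the nuclear pore, had 7 of 22 negative (median -0.77). KAP122 and LOS1 were followed by NMD5 (-2.38) and PSE1 (-1.68), whereas KAP95 (-0.01) and SRP1 (-0.29), the classical import pair, were near 0. The second Ran gene GSP2 had 1.77 and the main one GSP1 0.41. Nucleoporins had 9 of 32 negative (median -0.63). Among them were 4 scaffold members, NUP120 (-1.93), NUP157 (-1.54), NUP170 (-1.45) and NUP85 (-1.42), while the repeat proteins NUP100 (0.70) and NUP116 (0.38) were above 0. Of 23 genes for mRNA 3' ends 7 were negative (median -0.57). RNA14 (-3.24), RNA15 (-1.83), PCF11 (-1.89) and HRP1 (-1.95) are parts of cleavage factor I, and the poly(A) polymerase PAP1 stood at 0.20. In splicing the helicases PRP16 (-2.61) and BRR2 (-1.63) were lowest among 7 of 45 negative genes, a share below that of all genes, and the median was -0.22. The exosome helicase MTR4 (-1.43) and the core subunit MTR3 (-1.32) were lowest among 7 negative genes of 36 for mRNA decay, a share close to that of all genes, and the exonuclease XRN1 had 0.08.

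Cell cycle genes were negative most often in the lists of mitosis. The G2/M list had the lowest median of all 99 lists, -1.90, with 16 of 21 genes at least 2-fold negative. Below -2.0 were SWI5 (-2.89), CDC20 (-2.64), the polo kinase CDC5 (-2.44), the ring protein HOF1 (-2.41), the septum synthase CHS2 (-2.16), BUD4 (-2.15) and the kinases ALK1 and KIN3 (-2.13 each). The mitotic cyclins CLB1 and CLB2 had -1.94 and -1.90. Of the factors that activate these genes, FKH1 had -1.73, NDD1 -0.28, FKH2 0.82 and MCM1 2.26, with both MCM1 probes at 2.26. In the anaphase-promoting complex and mitotic exit 12 of 25 were negative (median -0.80), and the subunits APC1 and APC4 stood at -1.67 and -1.56. Cohesin, condensin and kinetochore had 14 of 41 (median -0.55), including the loader SCC2 (-2.38), condensin YCG1 (-2.04) and separase ESP1 (-1.84), against ASK1 at 1.86. Replication had 13 of 53 (median -0.59), with the helicase subunit MCM7 at -2.07 and, on the other side, the damage-inducible reductase RNR3 at 3.20. The G1 cyclins CLN1 (-0.01), CLN3 (-0.84) and low-signal CLN2 (-0.64), and all 10 histones, were within 2-fold. Septins and bud neck genes had 7 of 24 at least 2-fold negative (median -0.37). The septins CDC10 (0.01) and CDC3 (-0.60) were within 2-fold, whereas BUD4 and the bud neck kinase KCC4 (-1.76) were negative.

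Amino acid genes differed by pathway. GCN4 stood at 7.83, and at 7.66 at 0 min. At 0 min the lysine, glutamate, leucine and arginine lists had medians of 0.29, 0.22, 0.47 and 0.26, each with 0 genes beyond 2-fold. A link of these lists to GCN4 was not tested. Lysine synthesis had 6 of 9 genes at least 2-fold positive (median 2.19), from the homocitrate synthases LYS20 (3.65) and LYS21 (2.19) to the last enzyme LYS1 (2.86). Glutamate, glutamine and GABA had 8 of 14 (median 1.71), among them glutamine synthetase GLN1 (2.85), the glutamate-degrading GDH2 (2.82) and GAD1 (3.21), and the biosynthetic GDH1 and GLT1 had 0.35 each. For leucine, LEU2 (3.71), LEU1 (2.50), LEU4 (1.80) and the cytosolic aminotransferase BAT2 (2.85) were positive, and the regulator LEU3 (-1.74) and the second isopropylmalate synthase LEU9 (-1.39) negative. Arginine and proline had 6 of 16 positive, with the synthesis genes CPA1 (2.17) and ARG1 (2.03) beside the breakdown genes CAR2 (2.48) and CAR1 (1.80). Histidine genes divided 2 against 2 with 1 of the latter, HIS3, at low signal. The serine and one-carbon list stood on the other side (median -0.65), with SER3 (-3.22), MTD1 (-2.05) and methionine synthase MET6 (-1.32), against SER1 at 2.15. The kinase GCN2, which raises GCN4 translation when amino acids are short, had -1.90, and 10 of the 12 genes of the Gcn4 control list, GCN2 included, were below 0. Of 29 permeases 12 were positive and 2 negative, led by DIP5 (3.96), BAP3 (3.09) and the peptide carrier PTR2 (2.70), and the general permease GAP1 had -0.22.

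Sulfur, nucleotide, phospholipid and iron genes lay on both sides within their lists, as all genes of the array did. SAM3 (4.52), MET14 (2.10) and MET28 (1.92) were positive while the S-adenosylmethionine synthetases SAM1 and SAM2 had -2.13 and -1.09. In purine synthesis the IMP dehydrogenase IMD2 (3.26) contrasted with ADE17 (-2.79) and ADE1 (-1.76), and IMD2 had also been at 3.32 before glucose. In the pyrimidine list URA8 (2.80) and URA7 (-1.26) both encode CTP synthase, and URA1 (-2.31) and the uridine permease FUI1 (-2.54) were lowest. Phospholipid synthesis had 9 of 25 genes negative and 1 positive, although its median was 0.10. HNM1 (-2.97), the decarboxylase PSD1 (-2.01), CDS1 (-1.80), the inositol carrier ITR1 (-1.71) and the serine branch gene CHO1 (-1.23) were on the negative side and the methyltransferase OPI3 (1.64) on the other. Ergosterol genes had a median of -0.12, with ERG9 (1.32) and ERG5 (-1.55) apart, and ERG3 at -2.47, a value that matches the low-signal rule. The ceramidase YDC1 had 3.26 and the ketosphinganine reductase TSC10 -1.82. Phosphate genes had 7 of 24 negative, PHO89 (-3.09), PHO90 (-2.50) and PHO3 (-2.16) first, against PHO8 (2.85). For metals, the zinc carrier ZRT1 (2.21), the copper carrier CTR1 (1.47) and the metallothioneins CUP1-1 and CUP1-2 (1.77 each, near-identical copies) were positive. Of 14 zinc and copper genes 0 were negative. Iron uptake had 6 of 28 (21.4%) on each side, not far from the 17.1% positive and 16.5% negative of all genes.

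In the secretory pathway, glycosylation had 8 of 30 genes negative and 1 positive (median -0.14). ALG5 (-1.92), ALG8 (-1.74) and ALG7 (-1.53), which build or donate the lipid-linked sugar, and OCH1 (-1.45), which starts the outer chain, were the lowest of these, and MNN1, which ends it, had 1.65. Coat proteins of vesicles were near 0 (median -0.01) apart from ARF2 (2.65), SFB2 (1.09) and SFB3 (-1.30). Of 23 genes for ER translocation and folding 16 were below 0 (median -0.25). At least 2-fold negative were 3 of the 23, a share below the 16.5% of all genes. SRP72 (-1.41) and SRP68 (-1.36) of the signal recognition particle were lowest. HAC1, the activator of the unfolded protein response, was the 1 positive member beyond 2-fold (1.46), and the chaperone KAR2 had 0.87. Cell wall genes divided 6 against 6 of 26 (23.1% each), beside 17.1% positive and 16.5% negative of all genes. The glucan synthases parted, with stress-induced GSC2 at 3.48 and FKS1 at -1.08, and YGP1 (3.64) and SPI1 (3.20) contrasted with CWP1 (-2.79), CHS2 and the chitin synthase CHS3 (-2.10).

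Markers of mating type and of other cell states were examined because a strain difference in these would appear on every array. Of the alpha-specific genes, MF(ALPHA)1 (-2.73), MF(ALPHA)2 (-4.22), STE3 (-2.21) and SAG1 (-1.82) were all at least 2-fold negative. MF(ALPHA)1 and MF(ALPHA)2 were within 2-fold at 0 min, at -0.70 and -0.91, and had -1.185 and -3.78 at 60 min. The a-specific genes were divided, with STE2 (-1.93), MFA1 (-1.32) and low-signal MFA2 (-1.80) negative, and BAR1 (-0.71), low-signal AGA2 (-0.06) and STE6 (0.48) within 2-fold. In the whole pheromone list 16 of 35 genes were negative and 3 positive (median -0.82), with FAR1 (-3.48), SST2 (-2.79) and the activator STE12 (-1.83) low and PRM1 (2.50) high. At 0 min the median of that list was -0.33 and at 60 min -0.27. Sporulation genes divided 6 against 8 of 24, and 6 of them were at low signal. Genes used as laboratory markers stood at 3.71 for LEU2, 2.07 for URA3 and 1.78 for LYS2 on the positive side, and at -1.03 for TRP1 and -1.27 for low-signal HIS3. Of these, URA3 (2.83) and HIS3 (-1.65) were also beyond 2-fold at 0 min. The genotypes at these loci are not given in the labels, and the part of such differences in the results above was not tested.

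Position in the genome was compared through neighbouring genes. Among 1332 pairs of neighbours that are transcribed away from each other, and so share an upstream region, 57 (4.28%) were both at least 2-fold positive and 41 (3.08%) both negative. Among 1381 pairs transcribed towards each other these were 26 (1.88%) and 40 (2.90%), and among 2503 pairs in tandem 103 (4.12%) and 85 (3.40%). Pairs beyond 2-fold on opposite sides were 57 (4.28%) of the divergent, 77 (5.58%) of the convergent and 127 (5.07%) of the tandem pairs. The shares among genes paired without regard to position were not computed. The correlation of the ratios over pairs was 0.16 for divergent, -0.02 for convergent and 0.09 for tandem pairs, given as a description, since pairs share genes. Divergent pairs with both genes high included IDH1 with NCE103, PDC6 with CTT1 and SDH6 with ARO10, and RPA43 with RPA190 was a pair with both low, so that 2 subunits of RNA polymerase I share that region. Chromosome medians ran only from -0.24 (I, 89 genes) to 0.01 (XI).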

How the data were processed

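The authors deposited 1 log2 ratio of the 2 channels per probe and array. The labels assign Cy5 to channel 1 and Cy3 to channel 2. How the authors scanned, background-corrected and normalised the arrays is not stated in the labels or file headers, and array intensities were not analysed here. That the logarithm is to base 2 was taken from gaps between tied values. Of 10807 probes on the array, 9202 had 1 gene symbol, 0 several and 1605 none, and 9194 of the named ones matched NCBI RefSeq R64, which changed 0 symbols. That table was used for names, chromosomes and the order of neighbours only.

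Probes of a gene were averaged (2010 genes had 1 probe, 3576 had 2 and 12 had 3 or 4). Genes were counted beyond 2-fold, a log2 ratio of 1.0. Low signal meant that each probe was missing or within 0.001 of a log2 ratio of whole numbers up to 8 after the array offset of -0.475, which a value can match by coincidence. The number of arrays limits the precision.

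The members, the 99 lists (2106 genes) and the 57 families were chosen with earlier results of these data known. Named genes were GCR1, the 25 highest and 25 lowest, from each list up to 6 of largest size, the one nearest 0 and up to 2 opposite the median, all of glycolysis and the families, the 10 least alike probe pairs and the 15 largest rises and falls between arrays. Other genes were named after their values were seen. Alternatives were other folds, centring, scaling, probe rules and leaving out low-signal genes. Promoter motifs were not analysed here. Calculations used Python 3.11.15 with pandas 2.3.3 and numpy 2.4.6, figures matplotlib 3.10.9, and were tested on simulated data.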

Additional observations from a re-analysis of the deposited data

Results flagged for a closer look

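Genes beyond 2-fold on one side at 20 min and beyond 2-fold on the other at 60 min drew attention, since 1 contrast between the strains then had opposite signs at 2 times. There were 17, of which 3 were at low signal on either array, and the difference was not tested for any, with 1 array per time. Beyond 2-fold at 20 min were 958 positive and 925 negative genes, and at 60 min 906 and 759. Some values, such as those of PDR12 and MATALPHA1, lay close to the 2-fold line at both times. Negative at 20 min and positive at 60 min were ADE17 (-2.79, then 2.23) of purine synthesis, the uridine permease FUI1 (-2.54, then 1.20), PRM5 (-1.35, then 1.46), YPL088W (-1.23, then 1.23) and the mating-type regulator MATALPHA1 (-1.03, then 1.07). Positive at 20 min and negative at 60 min were several genes of mitochondria, namely MPC3 (1.11, then -1.28) of the pyruvate carrier, aconitase ACO1 (1.46, then -1.17), the main ADP/ATP carrier PET9 (1.51, then -1.42), the elongation factor MEF2 (1.44, then -1.35) and MBR1 (1.58, then -1.40). The others on that side were the weak acid pump PDR12 (1.01, then -1.04), the ammonium permease MEP3 (1.29, then -1.55), glycerol kinase GUT1 (1.35, then -1.03) and MDG1 (2.31, then -1.41).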

How the results depend on the processing

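The counts of genes beyond 2-fold, 958 positive and 925 negative, depend on the threshold, with 1487 and 1623 at 1.5-fold and 497 and 320 at 3-fold. Among genes with 2 or more probes they were 578 and 602. These are counts over a smaller set, since 2010 genes had 1 probe, 3576 had 2 and 12 had 3 or 4. Scaling the array to the mean spread of the 3 arrays gave 641 positive and 545 negative genes. Centring on the median gene gave 1038 and 808, centring on the median probe 1123 and 723, a requirement that every probe pass 917 and 835, and leaving out low-signal genes 949 and 807. Of the families, 26 had members 4-fold apart in place of 42 at 2-fold, and 37 were 2-fold apart after scaling. The median probe difference was 0.107 without low-signal genes. The 99 list medians were recomputed under 5 alternatives each. Of these 495 values, 471 stayed within 0.482, the 95th percentile of probe differences, 24 moved farther, and 0 of those with a median beyond 2-fold changed sign. Other medians did change sign, 4 lists after centring, 4 without low-signal genes, 8 as means and 1 after scaling. Without low-signal genes hexose transporters went from -0.64 to 0.36 and sporulation genes from -0.42 to 0.48. As means, respiratory assembly factors went from -0.22 to 0.16 and phospholipid synthesis from 0.10 to -0.41. After scaling, 5 lists left the 2-fold range, among them 3 of the 4 negative ones, RNA polymerase I (-0.92) and the assembly of the small (-0.80) and large (-0.84) subunit, while the G2/M list kept -1.45. Small-subunit assembly also left it after centring (-0.96), and RNA polymerase I as a mean (-0.91). Array intensities were not analysed, so signal over background was not measured. No paired analysis was possible because each time point had 1 array, and no replicate could be left out.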

Other observations

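Several families outside the lists were looked at after their values were seen. All 7 measured SNZ and SNO genes, which make vitamin B6 and are known for expression in starved cells, lay between 1.29 and 3.93 (median 2.08), all beyond 2-fold on the positive side. Of 12 COS genes, membrane proteins of subtelomeric regions, 6 were at least 2-fold positive and 3 negative, between -2.52 and 2.25. The 24 PAU genes, a subtelomeric family of wall proteins, lay together at a median of -0.33, with 1 beyond 2-fold. AAD genes had 3 of 6 positive and 1 negative, and thiamine genes 3 of 16 and 1. Members of such families are alike in sequence and can share cRNA.

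Genes known only by a systematic name numbered 422 at 20 min, and 84 were at low signal. At least 2-fold positive were 82 (19.4%) and negative 77 (18.2%), close to the 17.1% and 16.5% of all genes. Probes with no gene symbol stood apart from genes. Of 1469 with a value, 587 were at least 2-fold negative and 58 positive, with a median of -0.645, and 794 matched the rule for low signal. Of these unnamed probes, 202 had ratios below that of the lowest gene, down to -9.17. Whether these probes read yeast transcripts or are control features of the array was not examined.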
